A study of Homo sapiens with 12 samples.

Results

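Insulin-like growth factor 2 (IGF2), the imprinted RNA gene H19 beside it, the receptors that bind IGF2 and the binding proteins that carry it were examined in NCI-H295R cells, an established human adrenocortical carcinoma line that makes steroid hormones. The set holds 10 genes chosen by name, of 60617 genes in the deposited count table: IGF2, H19, IGF1R, IGF2R, INSR and IGFBP2 to IGFBP6. Of these, 9 passed a filter on low counts and were among the 20360 genes tested, and IGFBP4 did not pass. Polyadenylated RNA was sequenced from 4 groups of 3 biological replicates, 12 libraries in all. EZH2i cells received EPZ-6438 (62 µM, 96 h), which inhibits EZH2, the enzyme of Polycomb complex PRC2 that methylates histone H3. CBPi cells received PRI-724 (26 µM, 96 h), which keeps β-catenin from binding its coactivator CBP. The labels give both doses as IC50 doses. FSK cells received DMSO for 48 h and then forskolin (10 µM, 48 h), which activates adenylyl cyclase and raises cAMP. Baseline cells received DMSO, the vehicle, in place of the inhibitors for 96 h. All 4 groups are cultures of 1 cell line, so the p-values measure the spread between these cultures.

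IGF2 is a secreted growth factor that signals mainly through the receptor tyrosine kinase IGF1R and through the insulin receptor INSR, which feed the PI3K-AKT pathway. IGF2R, the cation-independent mannose 6-phosphate receptor, binds IGF2 and takes it into lysosomes, where it is degraded. The IGF binding proteins hold IGFs outside the cell and can limit or prolong their action. IGF2 and H19 lie in the imprinted region of chromosome 11p15, where IGF2 is normally read from the paternal copy and H19 from the maternal copy, and high IGF2 is a well known feature of adrenocortical carcinoma.

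In the GENCODE 29 annotation of hg38, IGF2 (ENSG00000167244) lies on the minus strand of chromosome 11 at 2129112 to 2149603. H19 (ENSG00000130600) lies on the same strand at 1995176 to 2001470, and 127641 bases lie between them. IGFBP2 (chromosome 2, 216632828 to 216664436, plus strand) and IGFBP5 (chromosome 2, 216672105 to 216695525, minus strand) are neighbours that run towards each other with 7668 bases between them. IGF2R lies on chromosome 6 at 159969099 to 160113507, IGF1R on chromosome 15 at 98648539 to 98964530, INSR on chromosome 19 at 7112255 to 7294034, IGFBP3 on chromosome 7 at 45912245 to 45921874, IGFBP4 on chromosome 17 at 40443461 to 40457731 and IGFBP6 on chromosome 12 at 53097436 to 53102345.

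The promoters of IGF2R and IGFBP5 are shown because these genes had the largest rise and the largest falls among the members. Each sequence is the 250 bases before the RefSeq start of the gene (GRCh38.p14), read 5′ to 3′ on the strand of the gene. Capitals mark matches to CACGTG (the E-box) and TGACG (the core of the cAMP response element, CRE), searched on both strands.
IGF2R, chr6:159968832-159969081, plus strand: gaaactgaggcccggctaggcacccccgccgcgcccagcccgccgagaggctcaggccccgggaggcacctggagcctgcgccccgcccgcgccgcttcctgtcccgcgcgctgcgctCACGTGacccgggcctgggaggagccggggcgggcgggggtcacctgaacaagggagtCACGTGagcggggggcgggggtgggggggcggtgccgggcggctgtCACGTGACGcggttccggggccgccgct
IGFBP5, chr2:216695550-216695799, minus strand: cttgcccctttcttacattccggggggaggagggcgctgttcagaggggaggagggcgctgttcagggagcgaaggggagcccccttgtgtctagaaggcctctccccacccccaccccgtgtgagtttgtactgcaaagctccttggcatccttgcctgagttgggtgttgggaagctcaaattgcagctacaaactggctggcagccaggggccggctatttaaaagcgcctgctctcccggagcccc
The IGF2R window holds CACGTG 3 times, and its 1 TGACG overlaps the last of them. The IGFBP5 window holds neither motif, and neither window holds TGACGTCA, the full CRE. Of 35116 RefSeq windows of this length, 6.34% hold CACGTG, 21.2% hold TGACG and 1.65% hold TGACGTCA, and 28 windows (0.0797%) hold CACGTG at least 3 times. The bound of 3 equals the count in the IGF2R window, which is itself among these 28. The windows were not matched for their share of G and C, which is 79.2% in IGF2R. The matches describe these letters and do not show binding. RefSeq windows were found for 9 of the 10 members, and IGF2 was not matched.

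An exon of H19 also carries the hairpin of the microRNA miR-675, whose mature arms RefSeq gives on chromosome 11. They are shown with the seed, bases 2 to 8, in capitals, because they are the small RNA product of the H19 transcript measured here.
hsa-miR-675-5p: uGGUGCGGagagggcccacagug
hsa-miR-675-3p: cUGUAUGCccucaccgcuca
The arms have different seeds. Libraries made from polyadenylated RNA do not measure mature microRNAs, so no level is given for them.

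Total counts per library were 29.5 to 31.5 megacounts in EZH2i, 20.6 to 28.8 in CBPi, 23.4 to 25.4 in FSK and 21 to 27 in baseline. Replicate numbers used here follow the order of the samples within each group, since the labels give none. CBPi replicate 2 stood apart from its replicates. The chi-square per degree of freedom between counts was 13.3 and 14.5 for the 2 pairs that hold it and 2.71 to 7.34 for the other 10 replicate pairs. Without that library, 5 members passed in EZH2i, 6 in CBPi and 8 in FSK against baseline, in place of 5, 7 and 7. Over all genes, 12393, 11550 and 10944 of 20817 passed in that fit, in place of 11778, 11984 and 10301 of 20360. Adrenocortical markers were present, some of them at low levels. The sum of 8 of them (STAR, CYP11A1, CYP17A1, HSD3B2, CYP21A2, NR5A1, INHA and MC2R) was 604 to 631 CPM in EZH2i, 579 to 651 in CBPi, 3882 to 4083 in FSK and 1983 to 2046 in baseline. MC2R had a mean of 0.989 CPM in EZH2i and 0.180 in CBPi, and INHA had 1.53 and 1.14. Unlike the sum, INHA was not higher in FSK (mean 8.82 CPM, against 9.46 in baseline). CPM are counts per megacount, scaled between libraries by the trimmed mean of M values.

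IGF2 RNA was abundant in every library and did not pass the test in any treatment against baseline. IGF2 had 4162, 4140.3 and 4064 CPM in EZH2i, 3817, 2790.5 and 3598 CPM in CBPi and 3107, 3493 and 3726 CPM in FSK, against 3939.8, 3835 and 3526 CPM in baseline. The 3 EZH2i libraries lay above the 3 baseline libraries, while CBPi and FSK libraries overlapped with baseline, and CBPi replicate 2 was the lowest of all 12. IGF2 took 0.422% ± 0.0064 of all counts in EZH2i, 0.342% ± 0.053 in CBPi, 0.331% ± 0.029 in FSK and 0.380% ± 0.021 in baseline (SD, n = 3 each). By the quasi-likelihood test of edgeR, Benjamini-Hochberg adjusted over all genes tested, its log2 fold change was 0.13 ± 0.10 SE in EZH2i (adjusted p = 0.313), -0.15 ± 0.10 SE in CBPi (adjusted p = 0.251) and -0.13 ± 0.10 SE in FSK (adjusted p = 0.333). The call depended on the setting. Without a filter on low counts the adjusted p of IGF2 was 0.00525 in EZH2i, 0.000892 in CBPi and 0.00164 in FSK. In a fit of only EZH2i and baseline it was 0.0170, and for FSK without CBPi replicate 2 it was 0.0152.

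The IGF2 row is uncertain for another reason, since the count table holds other gene IDs on the same bases. In GENCODE 29, 73.7% of the exon bases of IGF2 also belong to ENSG00000284779, to which GENCODE 29 gives the same symbol, and 20.9% to the readthrough gene INS-IGF2. The annotation release of the authors is not given, and how their counting split shared reads is not given either. Their deposited length of IGF2 is 6259 bases, against 6979 exon bases in GENCODE 29. The overlap shares may therefore differ in the annotation they used. The 3 rows summed to 7991 ± 91.3 CPM in EZH2i, 6679.6 ± 997 in CBPi, 6717 ± 571 in FSK and 7326 ± 424 in baseline (SD, n = 3 each). Tested as 1 gene in edgeR, the sum had a log2 fold change of 0.13 in EZH2i (adjusted p = 0.288), -0.13 in CBPi (adjusted p = 0.257) and -0.13 in FSK (adjusted p = 0.310) against baseline. IGF2-AS, an RNA read from the opposite strand inside IGF2, rose in FSK to 4.69 ± 0.584 CPM, against 2.27 ± 0.294 CPM in baseline (SD, n = 3 each), a log2 fold change of 1.04 ± 0.14 SE with an edgeR adjusted p of 2.79e-06. Its exons share 11.6% of their bases with IGF2 exons, and the strand setting of the counting is not given, so reads of both cannot be told apart on those bases.

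H19, a long noncoding RNA, was low in every library and rose in EZH2i. H19 had 3.73, 4.76 and 4.37 CPM in EZH2i, 0.823, 0.745 and 1.95 CPM in CBPi and 1.64, 1.74 and 2.87 CPM in FSK, against 2.19, 2.28 and 1.74 CPM in baseline. All 3 EZH2i libraries were above all other libraries, and CBPi and FSK libraries overlapped with baseline. These levels rest on few reads, with deposited counts of 121, 144 and 132 in EZH2i, 17.2, 18.5 and 56 in CBPi, 39.5, 42.2 and 63.5 in FSK and 48.2, 62 and 37.2 in baseline. H19 was 2.05-fold higher in EZH2i, a log2 fold change of 1.04 ± 0.24 SE with an edgeR adjusted p of 0.00121. It was 1.70-fold lower in CBPi, a log2 fold change of -0.76 ± 0.30 SE with an edgeR adjusted p of 0.0405. The CBPi call did not hold when any of 5 libraries was left out: the adjusted p was 0.0963 without baseline replicate 1, 0.128 without baseline replicate 2, 0.0504 without EZH2i replicate 3, 0.131 without CBPi replicate 1 and 0.114 without CBPi replicate 2. Without CBPi replicate 3, the highest of its group, the CBPi log2 fold change was -1.41 (adjusted p = 4.55e-04), and it then passed the test against 1.5-fold (adjusted p = 0.0164). In FSK the log2 fold change was -0.01 ± 0.28 SE and did not pass (edgeR adjusted p = 0.978).

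The ratio of IGF2 to H19 within a library, per kb of gene length, does not depend on scaling between libraries. Its geometric mean was 448 in EZH2i, 1451 in CBPi and 792 in FSK, against 845 in baseline. EZH2i ratios of 402 to 516 lay below baseline ratios of 779 to 932, with an exact two-sided permutation p of 0.1, the smallest that 3 against 3 libraries allow. CBPi ratios of 856 to 2116 and FSK ratios of 606 to 925 overlapped with baseline, with exact permutation p-values of 0.2 and 0.8. A ratio shows unequal change of the genes and not which of them changed.

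**Figure D1:**
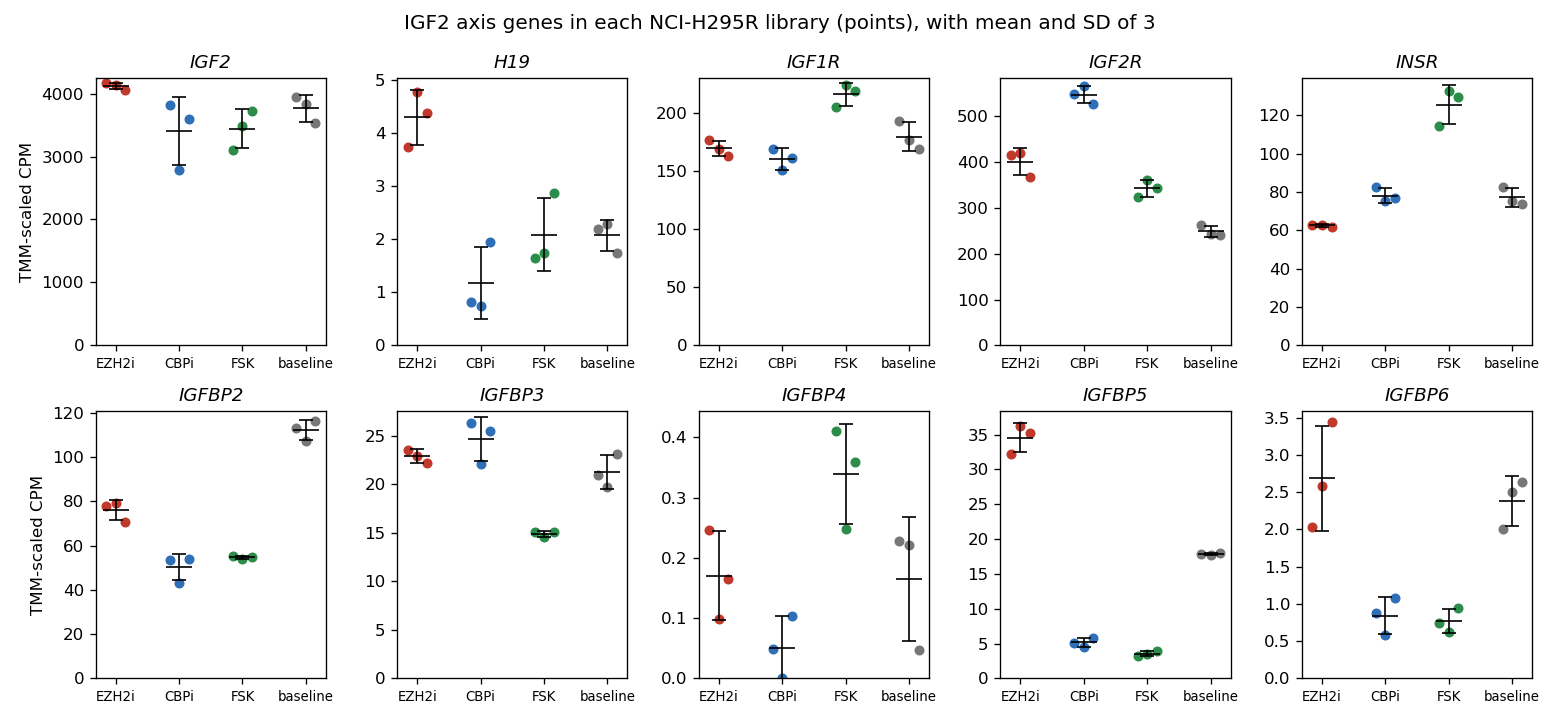
TMM-scaled CPM of each of the 10 genes in every library (points) with the mean and SD of each group of 3 (bars), on a separate axis for each gene, for EZH2i, CBPi, FSK and baseline. IGF2 stays between 2790.5 and 4162 CPM, while IGFBP5 is above baseline in all 3 EZH2i libraries and below it in all CBPi and FSK libraries.

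Of the receptors, IGF2R rose in every treatment, INSR fell in EZH2i and rose in FSK, and IGF1R rose in FSK. IGF2R, which clears IGF2, had 415, 420.3 and 369 CPM in EZH2i, 548, 566 and 528 CPM in CBPi and 324, 361 and 344 CPM in FSK, against 263, 242 and 241 CPM in baseline. No treated library overlapped with baseline, and CBPi libraries were the highest. IGF2R was 2.20-fold higher in CBPi (548 ± 19 CPM, against 249 ± 12.3 CPM in baseline, SD, n = 3 each). Its log2 fold change was 0.69 ± 0.05 SE in EZH2i (edgeR adjusted p = 9.84e-10), 1.14 ± 0.05 SE in CBPi (adjusted p = 4.60e-13) and 0.46 ± 0.05 SE in FSK (adjusted p = 3.45e-07). The 3 comparisons share the baseline libraries, so they are not independent of each other. Between treatments, IGF2R was lower in EZH2i than in CBPi (log2 fold change -0.45, edgeR adjusted p = 9.13e-07) and higher in CBPi than in FSK (log2 fold change 0.67, adjusted p = 8.43e-10). The promoter with 3 E-boxes shown above belongs to this gene, and any link of those letters to its level was not tested.

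INSR, the insulin receptor, had 63, 63 and 61.8 CPM in EZH2i, 82.4, 75.1 and 76.8 CPM in CBPi and 114, 133 and 129.7 CPM in FSK, against 82.9, 75.3 and 73.8 CPM in baseline. FSK libraries lay above and EZH2i libraries below every baseline library, and CBPi libraries overlapped with baseline. INSR rose 1.63-fold in FSK (log2 fold change 0.70 ± 0.06 SE, edgeR adjusted p = 2.65e-09) and was 1.23-fold lower in EZH2i (log2 fold change -0.30 ± 0.06 SE, adjusted p = 1.72e-04). In CBPi its log2 fold change was 0.01 ± 0.06 SE (adjusted p = 0.857). INSR was also lower in EZH2i than in FSK by 2.01-fold (edgeR adjusted p = 5.08e-12).

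IGF1R, the main signalling receptor for IGFs, had 176, 169 and 163 CPM in EZH2i, 169, 151 and 161 CPM in CBPi and 205, 224 and 219 CPM in FSK, against 193, 177 and 169 CPM in baseline. FSK libraries lay above baseline, and EZH2i and CBPi libraries overlapped with it. IGF1R rose 1.20-fold in FSK (log2 fold change 0.27 ± 0.05 SE, edgeR adjusted p = 3.34e-04) and fell slightly in CBPi (log2 fold change -0.17 ± 0.05 SE, adjusted p = 0.0127), a call that did not hold without baseline replicate 1 (log2 fold change -0.11, adjusted p = 0.0870). In EZH2i it did not pass (log2 fold change -0.08 ± 0.05 SE, adjusted p = 0.195).

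Per kb within each library, the geometric mean ratio of IGF2R to IGF1R was 1.85 in EZH2i, 2.67 in CBPi and 1.24 in FSK, against 1.08 in baseline. Treated and baseline libraries did not overlap for this ratio, and the exact permutation p was 0.1 in each comparison, the smallest possible. The ratio of INSR to IGF1R was 0.475 in EZH2i, 0.627 in CBPi and 0.748 in FSK, against 0.554 in baseline, again without overlap and with an exact permutation p of 0.1 in each comparison.

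**Figure D2:**
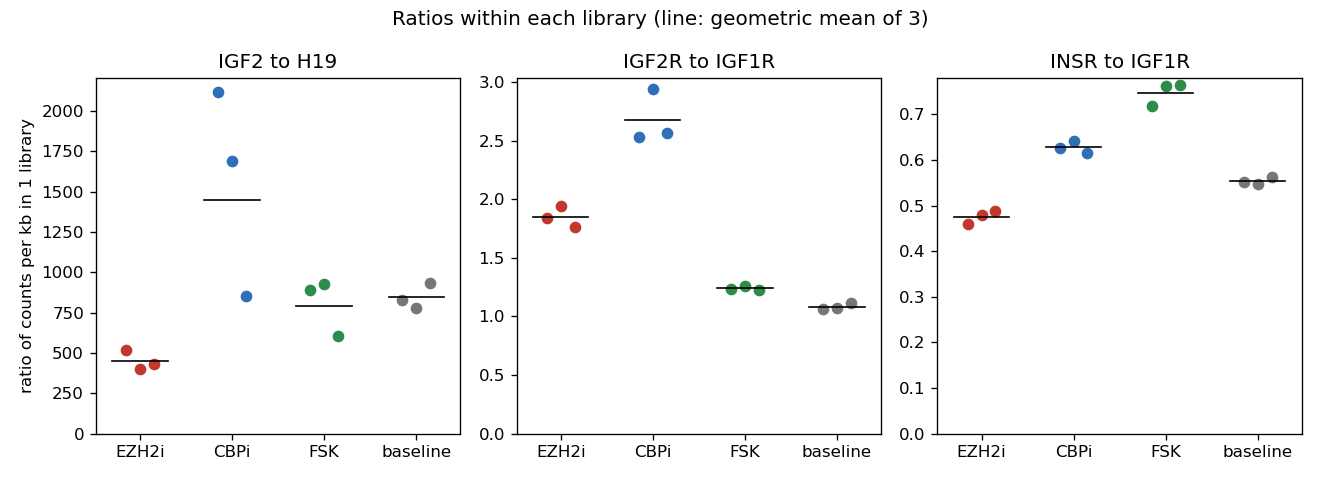
Ratios per kb within each library (points, linear axes from 0) of IGF2 to H19, IGF2R to IGF1R and INSR to IGF1R, in EZH2i, CBPi, FSK and baseline, with the geometric mean of each group. The IGF2R to IGF1R ratio is 1.77 to 1.94 in EZH2i, 2.53 to 2.94 in CBPi and 1.23 to 1.26 in FSK, against 1.06 to 1.12 in baseline.

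Among the binding proteins, IGFBP5 rose in EZH2i and fell strongly in CBPi and FSK, IGFBP2 fell in all 3 treatments, and IGFBP6 fell in CBPi and FSK. IGFBP5, a binding protein that also attaches to extracellular matrix, had 32.2, 36.2 and 35.3 CPM in EZH2i, 5.08, 4.55 and 5.80 CPM in CBPi and 3.20, 3.56 and 3.90 CPM in FSK, against 17.9, 17.7 and 18 CPM in baseline. No treated library overlapped with baseline, and EZH2i libraries were the highest of all. IGFBP5 was 1.93-fold higher in EZH2i (log2 fold change 0.95 ± 0.07 SE, edgeR adjusted p = 7.42e-10). It was 3.45-fold lower in CBPi (log2 fold change -1.79 ± 0.09 SE, adjusted p = 1.90e-12) and 5.04-fold lower in FSK (log2 fold change -2.33 ± 0.10 SE, adjusted p = 7.09e-14). Set against each other, IGFBP5 was 6.67-fold higher in EZH2i than in CBPi (edgeR adjusted p = 4.08e-15) and 9.74-fold higher in EZH2i than in FSK (adjusted p = 3.94e-17).

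IGFBP2, a secreted binding protein with a preference for IGF2, had 77.9, 79.1 and 70.7 CPM in EZH2i, 53.5, 43.3 and 53.8 CPM in CBPi and 55.2, 53.9 and 54.8 CPM in FSK, against 113, 107 and 116 CPM in baseline. Baseline libraries were above all treated ones. IGFBP2 was 1.48-fold lower in EZH2i (log2 fold change -0.57 ± 0.06 SE, edgeR adjusted p = 3.10e-07). It was 2.24-fold lower in CBPi (log2 fold change -1.16 ± 0.07 SE, adjusted p = 1.46e-11) and 2.06-fold lower in FSK (log2 fold change -1.04 ± 0.07 SE, adjusted p = 6.56e-11). So IGFBP2 and its neighbour IGFBP5 moved in opposite directions in EZH2i and in the same direction in CBPi and FSK.

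IGFBP6, which binds IGF2 with much higher affinity than IGF1, had 2.04, 2.58 and 3.44 CPM in EZH2i, 0.871, 0.580 and 1.08 CPM in CBPi and 0.739, 0.620 and 0.940 CPM in FSK, against 2.0, 2.50 and 2.63 CPM in baseline. CBPi and FSK libraries lay below baseline, and EZH2i libraries overlapped with it. The log2 fold change was -1.48 ± 0.25 SE in CBPi (edgeR adjusted p = 4.41e-05), -1.64 ± 0.26 SE in FSK (adjusted p = 2.39e-05) and 0.17 ± 0.20 SE in EZH2i, which did not pass (adjusted p = 0.488).

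IGFBP3, the main carrier of IGFs in blood, had 23.6, 23 and 22.2 CPM in EZH2i, 26.4, 22.2 and 25.5 CPM in CBPi and 15.1, 14.6 and 15.1 CPM in FSK, against 21, 19.7 and 23.1 CPM in baseline. FSK libraries lay below baseline, and the others overlapped with it. IGFBP3 was 1.42-fold lower in FSK (log2 fold change -0.51 ± 0.08 SE, edgeR adjusted p = 1.46e-05). It rose slightly in CBPi (log2 fold change 0.22 ± 0.07 SE, adjusted p = 0.0159), a call that did not hold without baseline replicate 2 (adjusted p = 0.110), CBPi replicate 1 (adjusted p = 0.0794) or CBPi replicate 3 (adjusted p = 0.0657). In EZH2i it did not pass (log2 fold change 0.11 ± 0.07 SE, adjusted p = 0.201). IGFBP4 was near absent, with counts of 8, 3 and 5 in EZH2i, 1, 0 and 3 in CBPi, 10, 6 and 8 in FSK and 5, 6 and 1 in baseline, counts too low for a fold change to be given.

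Fibroblast markers were measured beside the falls of IGFBP5 and IGFBP6, and they did not all go one way. The summed level of 6 of them (COL1A1, COL1A2, COL3A1, DCN, LUM and PDGFRB) was 27.1 to 30.1 CPM in EZH2i, 13 to 17.3 in CBPi and 16.2 to 17 in FSK, against 33.5 to 35.6 in baseline. COL1A1, COL1A2 and COL3A1 had means of 16.6, 0.713 and 10.9 CPM in EZH2i, 10.1, 0.212 and 5.09 CPM in CBPi and 6.51, 0.268 and 3.48 CPM in FSK, against 16.4, 1.46 and 15.7 CPM in baseline. DCN and LUM were higher in FSK, at means of 1.66 and 4.60 CPM, against 0.714 and 0.0397 CPM in baseline, and were at 0.249 and 0.0529 CPM in EZH2i and 0.102 and 0.0600 CPM in CBPi. PDGFRB reached at most 0.147 CPM in any library. All 4 groups are cultures of 1 cell line, so these levels do not give a share of fibroblasts. The part of these genes in the result was not tested. Bulk RNA also cannot tell a change in some of the cells from a change in all of them.

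Summed per kb, the 5 binding proteins came to 28.4 ± 0.74 CPM per kb in EZH2i, 17.4 ± 2.0 in CBPi and 16.1 ± 0.35 in FSK, against 33 ± 1.4 in baseline (SD, n = 3 each). IGFBP2 made up 56.3% ± 2.5 of this sum in EZH2i, 60.7% ± 0.27 in CBPi and 71.8% ± 0.90 in FSK, against 71.9% ± 0.72 in baseline. IGFBP5 made up 18.8% ± 1.0 in EZH2i, 4.57% ± 0.29 in CBPi and 3.42% ± 0.32 in FSK, against 8.40% ± 0.27 in baseline. IGFBP3 made up 17.6% ± 0.60 in EZH2i, 31.0% ± 1.1 in CBPi and 20.3% ± 0.061 in FSK, against 14.1% ± 0.55 in baseline. The sum and its shares hold only IGFBP2 to IGFBP6. IGFBP7, a further binding protein left out of them, had 231 CPM in EZH2i, 365 in CBPi and 733 in FSK, against 491 in baseline. The shares describe RNA and say nothing of secreted protein.

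**Figure D3:**
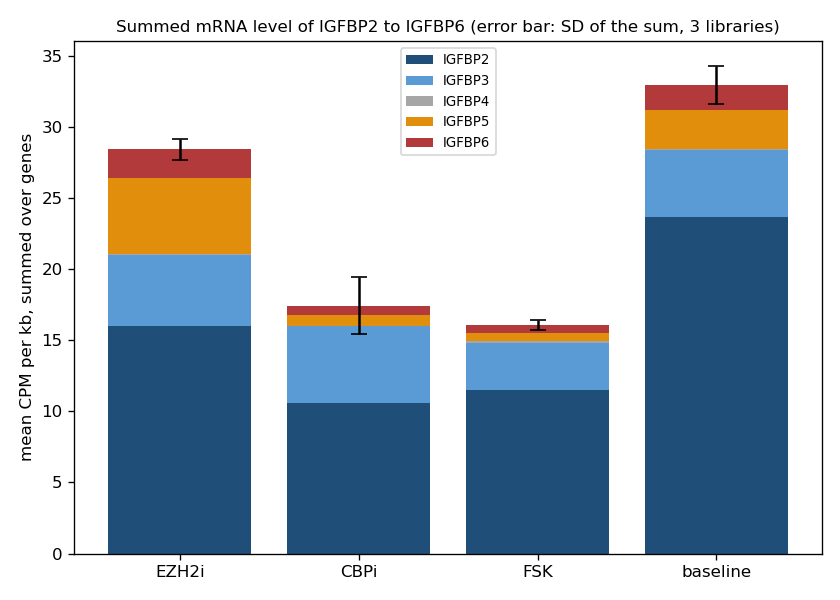
Summed level of IGFBP2 to IGFBP6 in CPM per kb, as stacked group means of the 5 genes with the SD of the sum over 3 libraries (error bar), for EZH2i, CBPi, FSK and baseline. The sum is 28.4 in EZH2i, 17.4 in CBPi, 16.1 in FSK and 33 in baseline, and the IGFBP5 part is largest in EZH2i.

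Counted over the 9 members tested, 5 passed in EZH2i against baseline (3 higher, 2 lower), where 57.8% of all genes tested passed (29.5% higher, 28.3% lower). In CBPi 7 passed (2 higher, 5 lower) against a background of 58.9% (29.8% higher, 29% lower), and in FSK 7 passed (3 higher, 4 lower) against a background of 50.6% (25.5% higher, 25.1% lower). The EZH2i count lay near its background, and the CBPi and FSK counts lay above theirs, with no test of the list. The CBPi count was 5 of 9 without baseline replicate 1, baseline replicate 2 or CBPi replicate 1. In those fits 11419 of 20841, 10854 of 20819 and 11378 of 20857 genes tested passed in CBPi. The CBPi count then lay near the background of the same fit, so its place above the background rests on single libraries. Changes past 1.5-fold were rarer. By edgeR's test against that fold, only IGFBP5 passed in EZH2i (background 11.4%), joined by IGF2R without baseline replicate 1 or EZH2i replicate 3 (adjusted p = 0.0247 and 0.00848) and by H19 without CBPi replicate 2 or 3 (adjusted p = 0.0470 and 0.0241). The same test called IGF2R, IGFBP2, IGFBP5 and IGFBP6 in CBPi (background 12.2%), and IGFBP2, IGFBP5 and IGFBP6 in FSK (background 11.8%). Libraries did not overlap with baseline for 6 members in EZH2i, 4 in CBPi and 7 in FSK, where the same held for 65.9%, 62.1% and 57.5% of all genes tested. The median log2 fold change of the members was 0.13 in EZH2i, -0.17 in CBPi and -0.13 in FSK, against 0.02, 0.01 and 0.01 over all genes tested.

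**Figure D4:**
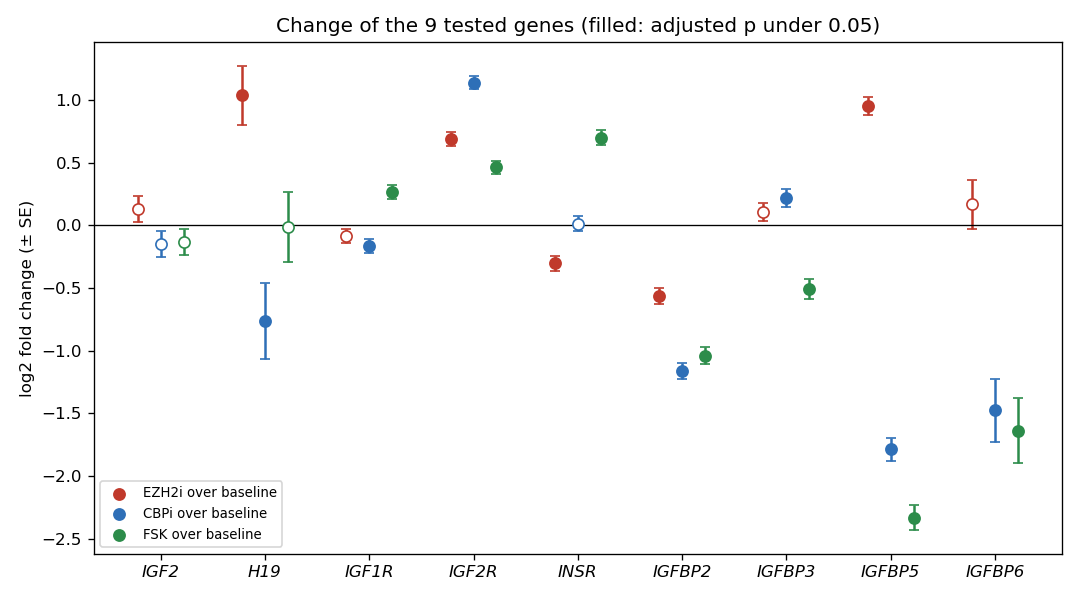
Log2 fold change against baseline of the 9 tested genes, with bars of 1 SE, in EZH2i, CBPi and FSK; filled points have an adjusted p under 0.05. IGFBP5 runs from 0.95 in EZH2i to -2.33 in FSK, and IGF2 lies between -0.15 and 0.13 in all 3.

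The treatments were also set against each other, with the shorter exposure to forskolin kept in mind. Of the 9 members tested, 6 passed between EZH2i and CBPi, where 43.9% of all genes did. Between EZH2i and FSK 8 passed (background 61.6%), and between CBPi and FSK 6 passed (background 58.8%). Past 1.5-fold, H19, IGFBP5 and IGFBP6 were higher in EZH2i than in CBPi (background 4.88%), and IGFBP5 and IGFBP6 were higher and INSR lower in EZH2i than in FSK (background 18.5%). Between CBPi and FSK 0 of 9 passed that fold (background 15.3%), and 6 passed without a minimum fold. Libraries did not overlap for 7 members between EZH2i and CBPi, 9 between EZH2i and FSK and 6 between CBPi and FSK, beside 52%, 67.5% and 61.5% of all genes. H19 had a log2 fold change of 1.80 in EZH2i over CBPi (edgeR adjusted p = 2.69e-05; 2.44 without CBPi replicate 3) and of 1.05 in EZH2i over FSK (adjusted p = 9.53e-04). IGF2 was just short of the threshold in EZH2i over CBPi (log2 fold change 0.28, edgeR adjusted p = 0.0527) and over FSK (log2 fold change 0.26, adjusted p = 0.0502), and passed in both with DESeq2 (adjusted p = 0.0350 and 0.0336). Summed with its overlapping IDs, IGF2 passed narrowly in both (log2 fold change 0.26 and 0.25, edgeR adjusted p = 0.0478 and 0.0401).

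Per kb of gene length, IGF2 was the highest member by far, at 659 ± 8.17 CPM per kb in EZH2i, 543 ± 86.3 in CBPi, 549.9 ± 50 in FSK and 602 ± 34.3 in baseline (SD, n = 3 each). In baseline IGFBP2 came next at 23.7 ± 0.962, then IGF2R at 13.9 ± 0.689 and IGF1R at 12.9 ± 0.893, whose libraries overlapped. INSR, IGFBP3, IGFBP5, IGFBP6, H19 and IGFBP4 followed in that order, from 7.14 ± 0.450 down to 0.0749 ± 0.0464 CPM per kb, without overlap between neighbours. In each treated group IGF2R took the place after IGF2, at 22.5 ± 1.60 in EZH2i, 30.7 ± 1.06 in CBPi and 19.2 ± 1.05 CPM per kb in FSK. Other neighbours did not differ beyond their spread: IGFBP5 and IGFBP3, and IGFBP6 and H19, in EZH2i; IGF1R and IGFBP2, and IGFBP5, IGFBP6 and H19, in CBPi; and INSR and IGFBP2, and H19, IGFBP6 and IGFBP5, in FSK.

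**Figure D5:**
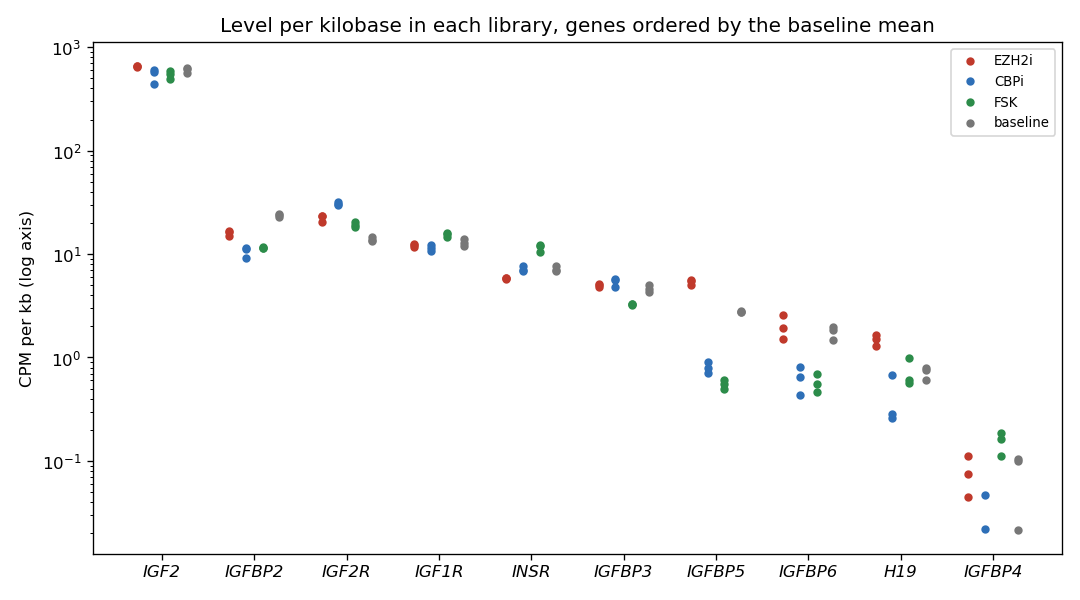
Level of each of the 10 genes in CPM per kb (log axis) in each library (points) of EZH2i, CBPi, FSK and baseline, with genes ordered by the baseline mean; the CBPi library with an IGFBP4 count of 0 cannot be drawn. IGF2 means are 543 to 659 CPM per kb in treated groups and 602 in baseline, far above IGF2R, which follows in each treated group.

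Genes whose levels went most like IGF2 over the 12 libraries were named by Pearson correlation of log2 CPM among 14853 genes whose log2 CPM averaged 1 or more. The first were its overlapping IDs ENSG00000284779 (r = 0.996) and INS-IGF2 (r = 0.993), then MLLT1 (r = 0.953), ENSG00000272679 (r = 0.947) and NFATC1 (r = 0.946). For H19 they were H2BC6 (r = 0.943), GATA4 (r = 0.924), KIF26A (r = 0.923), SAP130 (r = 0.918) and PRR14 (r = 0.915). These values describe the 12 libraries, which share the 4 groups, and carry no p.

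Other genes of the axis were counted from lists made by their known roles. Each list count is set beside the share of all genes tested that passed, 57.8% in EZH2i (29.5% higher, 28.3% lower), 58.9% in CBPi (29.8% higher, 29% lower) and 50.6% in FSK (25.5% higher, 25.1% lower), and each list median beside all-gene medians of 0.02, 0.01 and 0.01 (log2 fold change). Other ligands of these receptors were scarce: INS had no counts, and IGF1 was 3.61-fold lower in CBPi (1.06 ± 0.272 CPM, against 3.90 ± 0.738 CPM in baseline; edgeR adjusted p = 1.74e-07) and 1.97-fold lower in FSK (adjusted p = 1.53e-04). Of 3 further binding proteins tested, 1 rose and 1 fell in EZH2i, 0 rose and 2 fell in CBPi, and 2 rose and 0 fell in FSK, so 2 of 3 passed in each, near the shares of all genes. IGFBP7, which binds IGFs weakly, was at 231 ± 7.15 CPM in EZH2i, 365 ± 56.7 in CBPi and 733 ± 41.4 in FSK, against 491 ± 36.8 in baseline, and passed in all 3 (edgeR adjusted p = 9.75e-07, 0.0020 and 2.55e-04).

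Of 8 genes tested that process IGFs or their binding proteins, 4 rose and 1 fell in EZH2i, 4 rose and 0 fell in CBPi, and 7 rose and 0 fell in FSK, so 5, 4 and 7 of 8 passed. Their median log2 fold change was 0.32 in EZH2i, 0.23 in CBPi and 0.43 in FSK. PAPPA2, a protease that cuts IGFBP3 and IGFBP5, rose to 3.11 ± 0.469 CPM in EZH2i, 9.72 ± 0.427 in CBPi and 8.42 ± 0.462 in FSK, against 0.719 ± 0.170 in baseline, which was 13.6-fold in CBPi (edgeR adjusted p = 1.09e-13). STC2, a stanniocalcin that inhibits such proteases, rose to 2.94 ± 0.345 CPM in EZH2i, 6.22 ± 1.19 in CBPi and 4.78 ± 0.234 in FSK, against 0.597 ± 0.0376 in baseline. Both are low, and both passed 1.5-fold in all 3 treatments. Of 3 IGF2 mRNA-binding proteins, 2 rose and 1 fell in EZH2i, 1 rose and 1 fell in CBPi, and 2 rose and 0 fell in FSK, and the list median (log2 fold change) was 0.27, -0.07 and 0.18. IGF2BP3 fell to 28.6 ± 1.87 CPM in EZH2i and 24.3 ± 2.27 in CBPi, against 33.3 ± 0.925 in baseline (edgeR adjusted p = 0.00668 and 9.05e-06). IGF2BP2 rose in all 3 treatments, most in EZH2i at 9.70 ± 0.252 CPM, against 2.74 ± 0.616 CPM in baseline (log2 fold change 1.82 ± 0.16 SE, edgeR adjusted p = 6.55e-09).

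Of 12 receptor adaptors tested, 8 rose and 2 fell in EZH2i, 9 rose and 1 fell in CBPi, and 8 rose and 3 fell in FSK, and the list median (log2 fold change) was 0.27, 0.28 and 0.20. Both inhibitor counts, 10 of 12, and the FSK count, 11 of 12, lay above the shares of all genes, with no test of the list. GRB10, an adaptor that inhibits IGF1R and INSR signalling, rose to 135 ± 9.82 CPM in EZH2i, 99.7 ± 0.945 in CBPi and 73.8 ± 2.86 in FSK, against 38.1 ± 0.570 in baseline, which was 3.54-fold in EZH2i (edgeR adjusted p = 3.44e-16). GRB14, a related inhibitor, fell to 37.5 ± 3.55 CPM in CBPi and 28.5 ± 2.74 in FSK, against 79.1 ± 2.44 in baseline. IRS1, the docking protein of these receptors, rose to 99.8 ± 6.57 CPM in FSK, against 42.7 ± 2.27 in baseline (log2 fold change 1.22 ± 0.08 SE, edgeR adjusted p = 1.65e-09).

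Of 26 genes of the PI3K-AKT-mTOR pathway, 17 rose and 2 fell in EZH2i, 18 rose and 3 fell in CBPi, and 8 rose and 6 fell in FSK. The list median log2 fold change was 0.25 in EZH2i, 0.28 in CBPi and 0.03 in FSK. The 19 of 26 called in EZH2i and 21 of 26 in CBPi lay above the shares of all genes and the 14 of 26 in FSK near it, with no test of the list. FOXO3, a transcription factor that AKT holds out of the nucleus, rose to 77.2 ± 1.81 CPM in EZH2i and 59.5 ± 2.27 in CBPi, against 30.9 ± 4.16 in baseline. EIF4EBP1, a repressor of translation that mTOR inactivates, rose to 139.8 ± 14.5 CPM in CBPi and 98.4 ± 2.31 in FSK, against 59.2 ± 3.53 in baseline.

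Of 16 tested genes beside or overlapping IGF2 and H19 on 11p15, 6 rose and 5 fell in EZH2i. In CBPi 0 rose and 5 fell, and in FSK 6 rose and 4 fell. The list median (log2 fold change) was 0.06 in EZH2i, -0.05 in CBPi and 0.06 in FSK. The list holds INS-IGF2 and IGF2-AS, which share exon bases with IGF2, and IGF2-AS is among those that rose in FSK. The 5 of 16 called in CBPi lay below the share of all genes, and the 11 of 16 in EZH2i and 10 of 16 in FSK were nearer to it, with no test of the list. CDKN1C, an imprinted inhibitor of the cell cycle, rose to 6.02 ± 0.797 CPM in EZH2i, against 3.47 ± 0.479 in baseline (log2 fold change 0.78 ± 0.13 SE, edgeR adjusted p = 3.67e-05). KCNQ1OT1, the imprinted noncoding RNA of its domain, rose to 12.5 ± 2.28 CPM in EZH2i, against 5.60 ± 3.05 in baseline (log2 fold change 1.18 ± 0.38 SE, adjusted p = 0.0243). Of 8 tested factors known to act at the locus, 5 rose and 1 fell in EZH2i, 2 rose and 2 fell in CBPi, and 3 rose and 2 fell in FSK, and the list median (log2 fold change) was 0.31, 0.13 and 0.08. The list thus had 6 of 8 called in EZH2i, 4 of 8 in CBPi and 5 of 8 in FSK. With so few genes and no test of the list, these counts do not set it apart from all genes. PLAGL1, an imprinted zinc finger factor, fell to 184 ± 5.18 CPM in EZH2i, 189.8 ± 13.6 in CBPi and 126 ± 2.69 in FSK, against 312 ± 12 in baseline, and passed 1.5-fold in all 3. HMGA2, a chromatin protein, rose in all 3, most in FSK at 46.8 ± 1.28 CPM, against 18.7 ± 1.22 in baseline (edgeR adjusted p = 1.71e-13). EGR1, an immediate early factor, rose to 306 ± 43.8 CPM in FSK, against 79.5 ± 9.72 in baseline (log2 fold change 1.94 ± 0.24 SE, edgeR adjusted p = 1.12e-04).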

How the data were processed

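The 12 libraries fall into 4 groups of 3. Per the submitters' processing notes, the authors used STAR, featureCounts and the hg38 build; versions, annotation release, strand setting and the treatment of multimapping reads were not stated. The authors deposited estimated counts (expected counts) per gene for 60617 genes, not normalized, of which 65.6% of the non-zero ones are whole within 1e-06. The authors' deposited gene length column, a number of bases with no score or unit of expression, was used only for CPM per kb. All count columns were matched to labels, with 0 left over.

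Counts were rounded and tested with edgeR 4.0.16 in R 4.3.3 (filterByExpr, TMM, robust quasi-likelihood, 1 model over 12 libraries, Benjamini-Hochberg over 20360 genes, threshold 0.05; glmTreat for 1.5-fold). SE is the log2 fold change divided by the square root of F. Ratios were tested by exact permutation. Positions come from GENCODE 29, sequences and microRNAs from RefSeq (GRCh38.p14). Depth was 20.6 to 31.5 megacounts per library. The members, gene lists and tests were chosen with earlier results of these data known. Named list genes are up to 3 per list and comparison with the largest change among those called whose log2 CPM averaged 1 or more, of which some are named in the text. Alternatives were DESeq2 1.42.0, limma 3.58.1 voom, other scalings and filters, fits of 2 groups, each library left out, and, added after seeing the data, the overlapping IGF2 IDs summed. The pipeline was tested on simulated data.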

Additional observations from a re-analysis of the deposited data

How the results depend on the processing

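The count of members past 1.5-fold in EZH2i was 1 and became 2 with upper quartile scaling and with library size only (IGF2R added), and 2 without a filter and in fits of only 2 groups (H19 added). In FSK, upper quartile scaling added INSR (edgeR test against 1.5-fold, adjusted p = 0.0483). Leaving out 1 library gave 1 to 2 in EZH2i, 4 to 5 in CBPi and 3 to 4 in FSK, where INSR was added without FSK replicate 1 or baseline replicate 1. With 1 library left out, members called stayed at 5 in EZH2i and ranged over 5 to 7 in CBPi and 7 to 8 in FSK against baseline, 6 to 8 for EZH2i over CBPi, 8 to 9 for EZH2i over FSK and 5 to 6 for CBPi over FSK. Over all genes, 10596 to 12393 passed in these fits in EZH2i, 10854 to 12023 in CBPi and 9186 to 10944 in FSK against baseline. Between treatments, 7740 to 9045 passed for EZH2i over CBPi, 11634 to 13154 for EZH2i over FSK and 11066 to 12024 for CBPi over FSK. These fits tested 20757 to 20857 genes. Without the filter, members called were 6 in EZH2i, 8 in CBPi and 8 in FSK against baseline, with all 10 members tested. Of 38941 genes tested there, 12140, 12220 and 10557 passed. In fits of only 2 groups 6 members passed in EZH2i, where 12287 of 19897 genes did. With 1 library left out, the log2 ratio of IGF2 to H19 ranged from -1.02 to -0.84 in EZH2i, 0.51 to 1.16 in CBPi and -0.20 to 0.10 in FSK, where it changed sign without FSK replicate 3. Of 1188 member results under alternatives, 1130 kept direction and call, 18 lost the call, 28 gained it and 12 changed sign, all of these uncalled. They were IGF2 in CBPi over FSK (0.046 with library size only, -0.11 to 0.10 with 1 library left out), and, with 1 library left out, H19 in FSK (-0.30 to 0.13), INSR in CBPi (-0.027 to 0.062), IGFBP6 in EZH2i (-0.051 to 0.34) and IGFBP6 in CBPi over FSK (-0.092 to 0.37). IGF2 passed in EZH2i over CBPi, and over FSK, under 11 of 22 alternatives each. The cause was not tested. Depth limits H19, IGFBP6 and IGFBP4 most. IGFBP4 was tested only without the filter, where it passed only in CBPi over FSK (edgeR adjusted p = 0.00164), on counts too low for a fold. No paired analysis was possible because the labels carry no replicate numbers. The same replicate number in different groups does not mark a pair.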
